A study of Strongylocentrotus purpuratus with 8 samples.

Results

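Translation factors and aminoacyl-tRNA synthetases were followed after knockdown of SpRunt-1, a Runx-family transcription factor gene, in embryos of the sea urchin Strongylocentrotus purpuratus at the hatched blastula stage. The members are the 32 of 6414 array targets whose names carry the prefix gb_ASBL and a word for an initiation, elongation or release factor or for a tRNA synthetase or ligase, with transcription names left out. By their names, 10 were initiation factors or initiation factor binding proteins, 5 were elongation factors and 17 were tRNA synthetases, and the rule found 0 release factors. The morphant samples were 4 RNAs, 1 for each of 4 cultures from separate mating pairs, each from 3600 embryos injected with a morpholino that blocks splicing of the SpRunt-1 transcript. The control was 1 RNA from about 14400 untreated embryos of those cultures, pooled before hybridization. Morphants and controls grew in filtered seawater at 15 °C and were taken 18 hours after fertilization. Each morphant RNA met the pool on 2 two-colour arrays with exchanged dyes, and all 8 arrays lay on 1 slide.

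The controls were not injected and their cultures were pooled, so an effect of the morpholino, an effect of injection and a culture's own difference from the pool cannot be told apart. In RNA from whole embryos, fewer cells of a type and less RNA per cell also cannot be told apart. All ratios below are log2 of morphant over control after loess normalization, which sets a target against others of its brightness on the array. The target named Sp-Runt had a mean log2 ratio of -0.18 ± 0.27 (SD, n = 4 cultures) with a limma adjusted p of 0.345. A splice-blocking morpholino leaves RNA that a probe outside the affected exons can still bind, and the position of this probe is not known here, so it is no check of the knockdown. At least 1 target named for each of the blastula gene SPAN, hatching enzyme, arylsulfatase, Endo16 and FoxA was well above background on 8 of 8 arrays in both RNAs.

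Translation begins when initiation factors bring the small ribosomal subunit, the initiator tRNA and the messenger RNA together. Elongation factors then deliver charged tRNAs to the ribosome and move it along the message. The tRNA synthetases charge each tRNA with its amino acid. Sea urchin eggs hold stored messenger RNA and ribosomes, and protein synthesis accelerates after fertilization, partly through release of the cap-binding factor eIF4E from its binding proteins. The names on the array are shortened, so most initiation and elongation factors among the members cannot be assigned to a subunit, and they are called here as the array files name them.

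Of the 32 members, 27 had a probe bright enough to be tested, that is, 1 marked well above background in either channel on 4 or more arrays. The untested members were CO_P40173_ELONGATION_FACT, the target Mes_gi_Eukaryotic_transla, 24tig2704_Tyrosyl-tRNA_sy, Tig286_Cysteinyl-tRNA_syn and Tig449_Tyrosyl-tRNA_synth. The tested members were 9 initiation factors, 4 elongation factors and 14 synthetases. Their mean log2 ratios lay between -0.91 for IT_P10160_INITIATION_FACT and 0.66 for Tig409_Eukaryotic_transla, with a median of -0.03, against -0.02 for all 5481 tested targets. Their median size, without regard to sign, was 0.178, against 0.230 for all tested targets.

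None of the 27 members had a limma adjusted p under 0.05, against 5.00% of all tested targets, and the lowest adjusted p of a member was 0.0524. At an unadjusted p under 0.05, limma called 6 of 27 members, 3 of them higher and 3 lower in morphants, against 35.3% of all tested targets. The 3 higher ones were Tig409_Eukaryotic_transla, Tig4_Eukaryotic_translati and 9U8R3_ELONGATION_FACTOR_1. The 3 lower ones were Tig367_Eukaryotic_transla, IT_P10160_INITIATION_FACT and Mes_gi_Cysteinyl-tRNA_syn. The count of 0 rests on the setting: other ways of handling the background, the filter or the dye-swap arrays called between 0 and 3 members, as given with the alternatives at the end beside the share of all targets each called.

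A ratio of 1 sign in all 4 cultures was seen for 7 of 27 members, against 44.3% of all tested targets. Of these, 4 lay above 0 in every culture, against 20.9% of all targets, among them P70541_TRANSLATION_INITIA, whose control signal was seldom above background, and 3 lay below 0 in every culture, against 23.4%. For 22 of 27 members, limma's 95% interval lay within a 2-fold difference either way, against 75.0% of all targets. For 16 of 27 members it lay within 1.5-fold, against 51.8%. These intervals bound the mean over 4 cultures, and a miss of the test does not show that the members were unchanged. Both interval counts include P70541_TRANSLATION_INITIA, Mes_gi_Glycyl-tRNA_synthe and Tig439_Tryptophanyl-tRNA, which passed the filter mainly through 1 RNA.

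**Figure D1:**
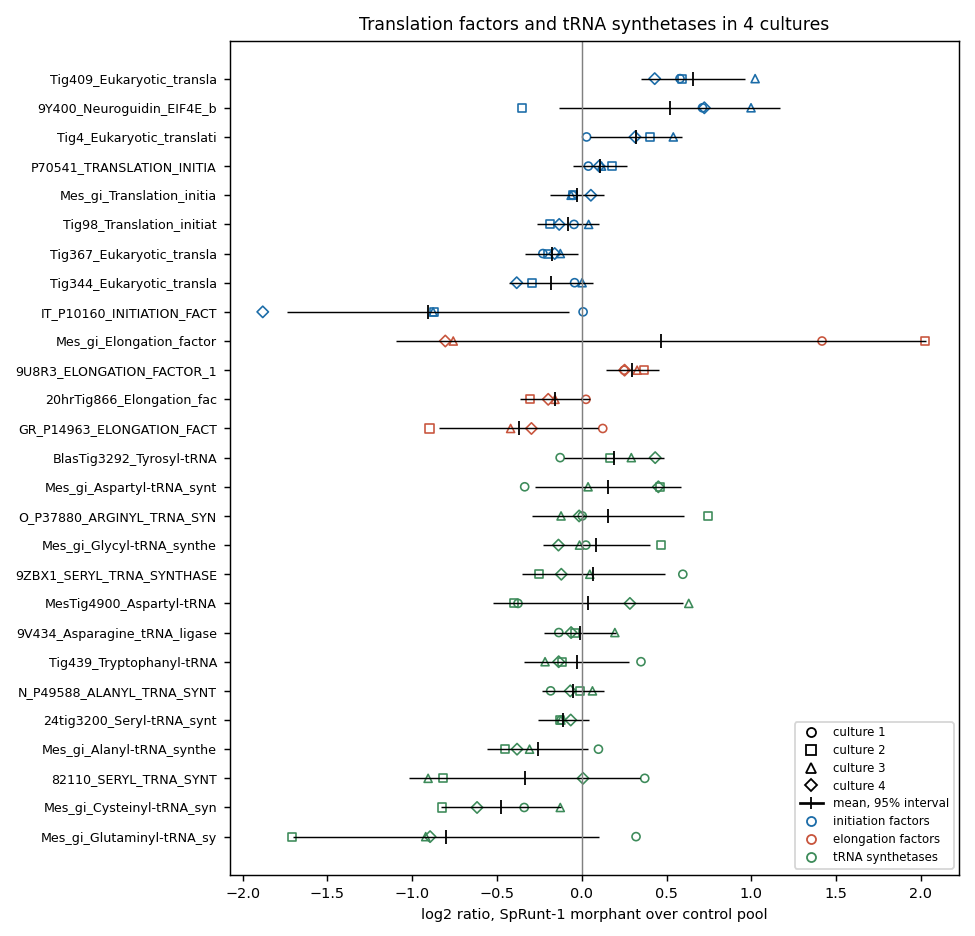
Each line is 1 of the 27 tested members, grouped by role, and the x axis is the log2 ratio of SpRunt-1 morphant over control pool. Open symbols are the 4 cultures (each the mean of 2 dye-swap arrays), the black tick is their mean and the bar is limma's 95% interval. Tig409_Eukaryotic_transla sits at 0.66, 9U8R3_ELONGATION_FACTOR_1 has its cultures close together at 0.25 to 0.37, and Mes_gi_Elongation_factor spreads from -0.81 to 2.02.

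Among initiation factors, Tig409_Eukaryotic_transla had the lowest adjusted p of all members. Its log2 ratios were 0.58, 0.59, 1.02 and 0.43 in cultures 1 to 4. All 4 cultures lay above 0, with culture 3 the highest. The mean was 0.66 ± 0.26 (SD, n = 4), or 1.58-fold, with a 95% interval of 0.35 to 0.96 on the log2 scale, and limma's adjusted p was 0.0524. Both dye orientations gave a like ratio, 0.64 with the morphant in Cy5 and 0.67 with the morphant in Cy3. The probe was dim, with a median signal over the arrays of 168 in morphant RNA and 68.5 in control RNA, over local backgrounds of 44 to 51. With the local background subtracted in place of normexp the mean was 1.52 at an adjusted p of 0.0246, and with Agilent's own log ratio it was 1.60 at an adjusted p of 0.0186. The stricter filter (adjusted p = 0.0471), the authors' deposited table (0.71, adjusted p = 0.0417), culture as a random block (adjusted p = 0.00663) and the Cy3 arrays alone (0.67, adjusted p = 0.0447) also put it past the threshold, which makes 6 of 17 settings. Its dimmer probe had a mean of 0.18, with -0.13 in culture 2, and was well above background in control RNA on only 4 of 8 arrays.

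Tig4_Eukaryotic_translati was brighter, with median signals of 1675 in morphant RNA and 693 in control RNA. Cultures 1 to 4 had log2 ratios of 0.03, 0.40, 0.54 and 0.31. All lay above 0, and culture 1 was almost at 0. The mean was 0.32 ± 0.22 (SD, n = 4) with an adjusted p of 0.113, and its other probe gave 0.22. Without loess, with each array centred on its median, the mean was 0.90 with an adjusted p of 0.130.

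Tig367_Eukaryotic_transla was just below 0 in every culture, with log2 ratios of -0.23, -0.20, -0.13 and -0.16. Its cultures lay close together, and the mean was -0.18 ± 0.04 (SD, n = 4) with an adjusted p of 0.117. The dye orientations differed in size, with -0.04 for the morphant in Cy5 and -0.31 for the morphant in Cy3. In culture 3 the 2 arrays had 0.12 and -0.37, so close culture values here are means of unlike arrays. The other probe gave -0.11. Median signals were 80.4 in morphant RNA and 74.0 in control RNA, close to background, and with the local background subtracted the mean was -0.52 (adjusted p = 0.0983). Tig344_Eukaryotic_transla had a like mean, -0.18 ± 0.19 (SD, n = 4), with culture 3 at 0.00 and an adjusted p of 0.231. Its other probe gave -0.01.

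IT_P10160_INITIATION_FACT had the largest mean ratio, by size, of any tested member, and the cultures differed widely, with log2 ratios of 0.01, -0.87, -0.88 and -1.88 in cultures 1 to 4. Culture 1 lay at the level of the pool, while culture 4 was the lowest. The mean was -0.91 ± 0.77 (SD, n = 4), a 95% interval of -1.74 to -0.07, with an adjusted p of 0.127. The probe was bright, with median signals of 1896 in morphant RNA and 2221 in control RNA. Its other probe, well above background on all 8 arrays in both RNAs, had 0.44, -0.01, -0.23 and -0.79 in cultures 1 to 4, a mean of -0.15. Both probes were highest in culture 1 and lowest in culture 4, and they differed in level. With culture as a random block over all 8 arrays the adjusted p was 0.0245, and centring each array on its median, with no loess, gave a mean of -0.35. Without culture 4 the mean was -0.58.

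9Y400_Neuroguidin_EIF4E_b is named for neuroguidin, a protein that binds eIF4E and represses translation of bound messages in Xenopus, so it is a regulator and not a factor of the initiation machinery. Its log2 ratios were 0.71, -0.36, 1.00 and 0.72 in cultures 1 to 4. Culture 2 lay below 0 and the other cultures well above it. The mean was 0.52 ± 0.60 (SD, n = 4) with an adjusted p of 0.200, and the other probe, with 0.15, 0.23, 1.44 and 0.86, had a mean of 0.67. The probes thus differed most in cultures 1 and 2. With median centring the mean was 1.09 (adjusted p = 0.0791).

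The remaining 3 initiation targets were dim, with means between -0.08 and 0.11 and adjusted p from 0.251 to 0.760. P70541_TRANSLATION_INITIA was well above background on 6 of 8 arrays in morphant RNA and on 1 of 8 in control RNA. It was therefore tested mainly because its morphant signal passed the filter, so a ratio above 0 was favoured by the filter itself and its values are a description only. The log2 ratios were 0.04, 0.18, 0.12 and 0.10, a mean of 0.11 ± 0.06 (SD, n = 4), and the mean was 0.98 with the local background subtracted and 1.04 with Agilent's log ratio.

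Among elongation factors, 9U8R3_ELONGATION_FACTOR_1 had cultures close together and the brightest probe of all members. Its log2 ratios were 0.25, 0.37, 0.33 and 0.25 in cultures 1 to 4. All were above 0 and within a narrow range. The mean was 0.30 ± 0.06 (SD, n = 4), 1.23-fold, with a 95% interval from 0.14 to 0.46 (adjusted p = 0.0575). The dye orientations did not match: the arrays with the morphant in Cy5 had ratios of 0.50 to 0.94, and those with the morphant in Cy3 had -0.43 to 0.00. The close cultures are therefore means of 1 array that was higher and 1 that was not. The scanner marked the probe as saturated in the morphant channel on 5 of 8 arrays, 3 of them with the morphant in Cy5, and on 0 arrays in the control channel. Median signals were 65143 in morphant RNA and 30754 in control RNA. A saturated spot gives a lower bound on its signal, so the fold rests partly on bounded values. The other probe, with median signals of 42967 in morphant RNA and 24648 in control RNA, had a mean of 0.20. The brighter probe passed the threshold in the authors' deposited table (0.46, adjusted p = 0.0419) and on the Cy5 arrays alone (0.73, adjusted p = 0.0404), while the Cy3 arrays alone gave -0.13. Median centring without loess gave 0.74 (adjusted p = 0.159).

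Mes_gi_Elongation_factor had the widest spread of all members, with log2 ratios of 1.42, 2.02, -0.76 and -0.81 in cultures 1 to 4. Cultures 1 and 2 lay far above the pool and cultures 3 and 4 below it. The mean of 0.47 ± 1.47 (SD, n = 4) had an adjusted p of 0.601 and describes no culture. The limma F test between cultures, on all 8 arrays with a dye term, gave an adjusted p of 8.04e-08. The probe was well above background on 5 of 8 arrays in morphant RNA and on 8 of 8 in control RNA, and the mean was -0.77 with the local background subtracted and -0.05 without culture 2. The other probe of this target was well above background on 0 of 8 arrays in both RNAs, with ratios of -0.14 to 0.08. The spread between cultures thus rests on 1 probe.

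GR_P14963_ELONGATION_FACT had log2 ratios of 0.12, -0.90, -0.42 and -0.30 in cultures 1 to 4. Culture 1 was above 0 and the others below it. The mean was -0.37 ± 0.42 (SD, n = 4) with an adjusted p of 0.201, the other probe gave -0.31, and the mean was -1.30 with the local background subtracted. 20hrTig866_Elongation_fac also had culture 1 above 0 and the others below it, with 0.02, -0.31, -0.16 and -0.20. Its mean was -0.16 ± 0.14 (SD, n = 4) with an adjusted p of 0.212, and its other probe gave -0.07. Both targets were dim. Median signals in morphant and control RNA were 94.9 and 90.7 for GR_P14963_ELONGATION_FACT. For 20hrTig866_Elongation_fac they were 87.5 and 77.2.

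**Figure D2:**
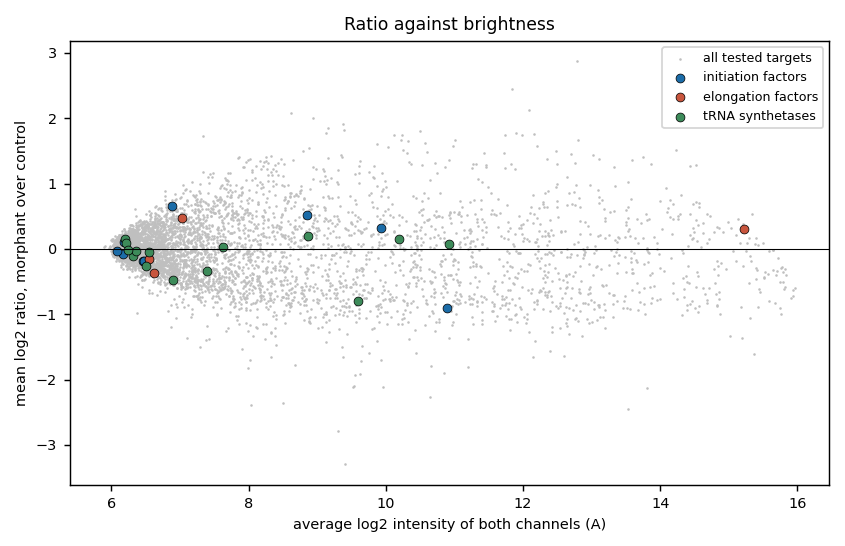
The x axis is the average log2 intensity of both channels and the y axis the mean log2 ratio of morphant over control, with members in colour over all 5481 tested targets in grey. Members lie mostly at the dim end, as tested targets in general do, with a median average intensity of 6.63 against 6.95 for all tested targets. Among the members, the elongation factor 9U8R3_ELONGATION_FACTOR_1 stands alone at the bright end.

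Among the 14 tested synthetases, Mes_gi_Cysteinyl-tRNA_syn had the lowest adjusted p. Its log2 ratios were -0.34, -0.82, -0.13 and -0.62 in cultures 1 to 4. All 4 lay below 0, with culture 3 the nearest to it. The mean was -0.48 ± 0.31 (SD, n = 4), 0.719-fold, with a 95% interval from -0.83 to -0.12 (adjusted p = 0.0929). Median signals were 95.3 in morphant RNA and 112 in control RNA. It passed the threshold in the authors' deposited table (-0.57, adjusted p = 0.0494) and with culture as a random block (adjusted p = 0.0458), and the mean was -1.10 with Agilent's own log ratio. Its dimmer probe gave -0.02, with culture 3 at 0.25.

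Mes_gi_Glutaminyl-tRNA_sy had the largest ratio among synthetases, with 0.32, -1.71, -0.92 and -0.90 on the log2 scale in cultures 1 to 4. Culture 1 was above the pool and the other cultures well below it. The mean was -0.80 ± 0.84 (SD, n = 4) with an adjusted p of 0.169, and without culture 1 it was -1.18 with an adjusted p of 0.0456, a setting that called 16.2% of all tested targets. Without culture 2 it was -0.50 with an adjusted p of 0.395. Median signals were 697 in morphant RNA and 724 in control RNA. Its other probe was near background, with median signals of 63.9 in morphant RNA and 60.2 in control RNA, and gave -0.09. With median centring the mean of the brighter probe was -0.24.

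Cultures 1 and 2 stood on opposite sides of 0 in several other synthetases. Mes_gi_Alanyl-tRNA_synthe had log2 ratios of 0.10, -0.45, -0.31 and -0.38, a mean of -0.26 ± 0.25 (SD, n = 4) and an adjusted p of 0.176. Its 2 arrays of culture 1 had -0.10 and 0.29, and its other probe gave -0.07. The serine enzyme target sing_82110_SERYL_TRNA_SYNT had 0.37, -0.82, -0.91 and 0.01, a mean of -0.34 ± 0.63 (SD, n = 4) and an adjusted p of 0.390, and with median centring its mean was 0.03. Its other probe was well above background on 0 arrays in both RNAs, with ratios of -0.05 to 0.03. BlasTig3292_Tyrosyl-tRNA ran the other way, with culture 1 below 0 at -0.13 and the other cultures at 0.16, 0.29 and 0.43. Its mean was 0.19 ± 0.24 (SD, n = 4) with an adjusted p of 0.272, and 0.78 with median centring (adjusted p = 0.141). Its other probe had cultures 1 and 2 both below 0, at -0.29 and -0.33, with a mean of 0.02.

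The remaining synthetases had smaller mean ratios. 24tig3200_Seryl-tRNA_synt had log2 ratios of -0.12, -0.13, -0.12 and -0.07, the smallest SD of all members at 0.03 around a mean of -0.11, with an adjusted p of 0.226. Both of its probes were dim and gave the same mean, -0.11. N_P49588_ALANYL_TRNA_SYNT had a mean of -0.05 ± 0.10 (SD, n = 4) with an adjusted p of 0.638 and was the 1 member whose probes had opposite signs, -0.05 and 0.02. The other 7 tested synthetases, with names for aspartate, arginine, glycine, serine, tryptophan and asparagine enzymes, had means between -0.03 and 0.15 and adjusted p from 0.534 to 0.931. Their SDs ran from 0.14 to 0.51, so some of these means near 0 join cultures well apart on opposite sides of 0. Mes_gi_Glycyl-tRNA_synthe was well above background on 6 arrays in morphant RNA and 3 in control RNA, with a mean of 0.09. Tig439_Tryptophanyl-tRNA was so on 3 arrays in morphant RNA and 5 in control RNA, with a mean of -0.03. Each passed the filter through 1 RNA, which favoured the sign of its ratio, so these values are a description only.

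A second probe was kept for 19 of the 27 tested members, and 1 of 19 pairs had opposite signs, against 21.3% of 4082 targets with a kept pair. The size differed more than the sign. The dimmer probe lay nearer 0 than the brighter one for 13 of 19 members and farther from 0 for 6. For Tig409_Eukaryotic_transla, IT_P10160_INITIATION_FACT, Mes_gi_Glutaminyl-tRNA_sy and Mes_gi_Cysteinyl-tRNA_syn it lay nearer 0, at 0.18, -0.15, -0.09 and -0.02. Ratios from the 2 dye orientations had opposite signs for 6 of 27 members, against 12.5% of all tested targets.

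**Figure D3:**
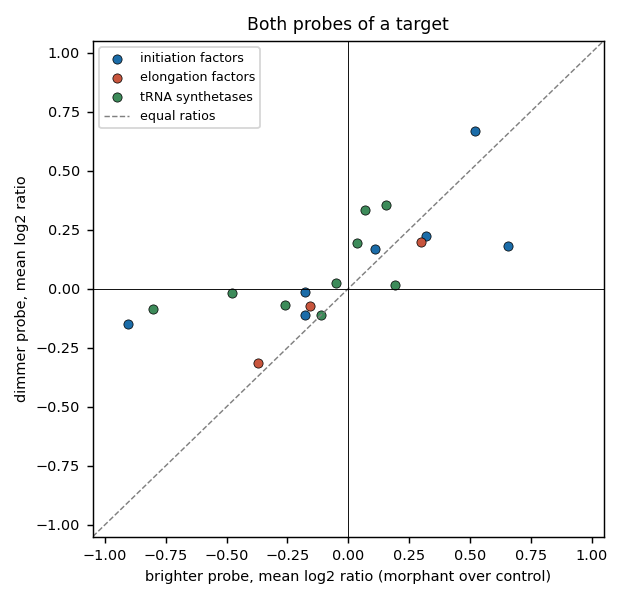
Each point is 1 of the 19 members with 2 kept probes, with the mean log2 ratio of morphant over control for the brighter probe on the x axis and for the dimmer probe on the y axis. The dashed line marks equal ratios. The lower left points, IT_P10160_INITIATION_FACT and Mes_gi_Glutaminyl-tRNA_sy, have dimmer probes close to 0 at -0.15 and -0.09.

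Members were also split by signal. A dim probe with a large ratio can reach a signal of 100 in 1 RNA and so leave the dim group. Tig409_Eukaryotic_transla did so, with median signals of 168 in morphant RNA and 68.5 in control RNA. Smaller ratios in the dim group are thus partly built into the split. For 14 members the median signal was under 100 in both RNAs, and their means lay between -0.37 and 0.15 with a median size of 0.110, while the other 13 members lay between -0.91 and 0.66 with a median size of 0.336. Normexp with an offset draws dim ratios towards 0, and its part in this difference was not tested. With the local background subtracted, the median size was 0.486 for the 14 dim members and 0.568 for the other 13. That setting moved the median of all 27 members to -0.40, against -0.11 for all tested targets. Median centring without loess left the dim members at a median of -0.06 and put the other 13 members at 0.73, where loess gave 0.15, and then 14 of 27 members lay above 0 in place of 12.

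Differences between cultures were about as common among the members as among all tested targets. The limma F test called 18 of 27 members at an adjusted p under 0.05, against 61.5% of all tested targets. By role these were 5 of 9 initiation factors, 2 of 4 elongation factors and 11 of 14 synthetases. In cultures 1 to 4, 16, 9, 13 and 10 of the 27 members had a ratio above 0, against 2642, 2470, 2541 and 2562 of all 5481 targets. The members' medians were 0.02, -0.13, -0.01 and -0.07, against -0.01, -0.05, -0.03 and -0.02 for all targets. The error in the F test is the spread between 2 dye-swap arrays of the same RNA, and the arrays of a culture share a column of the slide, so culture, RNA preparation and slide column cannot be told apart. The arrays of each dye orientation share a row of the slide, so dye orientation and slide row cannot be told apart either.

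Other targets of the translation machinery give the setting for these values. The 13 tested gb_ASBL targets whose names were cut before the words of the rule, a group put together after names were seen, had a median of -0.03. Of these, 1 passed, against 5.00% of all tested targets: sing_9SC52_TRANSLATION_ELO rose in morphants, with log2 ratios of 0.39, 0.59, 0.43 and 0.39 in cultures 1 to 4. All 4 lay above 0 in a narrow range, the mean was 0.45 ± 0.09 (SD, n = 4), 1.37-fold, with an adjusted p of 0.0458, and its other probe gave 0.41. Without culture 2, 3 or 4 the mean was 0.40, 0.46 and 0.47 at adjusted p of 0.111 to 0.138, and in those settings 1, 0 and 0 of all 5481 targets passed. It also missed the threshold with the local background subtracted (0.57, adjusted p = 0.0884), with Agilent's log ratio (0.62, adjusted p = 0.0796) and on the Cy5 arrays alone (0.44, adjusted p = 0.0667).

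Translation factors are also present as 17 curated gene models outside the gb_ASBL targets, of which 15 were tested. Of these 15, 1 passed, against 5.00% of all tested targets, and 12 had means below 0, against 53.8% of all. These signs are of the brightest kept probe. Among the 12, the other kept probe was above 0 for an Sp-eIF2 (0.13, mean -0.16) and an Sp-eIF4 (0.94, mean -0.51). It was also above 0 for Sp-EIF4 (0.11, mean -0.04) and for Sp-eIF3 targets, at 0.30, 0.20 and 0.17 (means -0.34, -0.41 and -0.86). It was below 0 for Sp-EF1A, the other Sp-eIF2 (-0.999), Sp-eIF5 (-0.13) and both Sp-EF1B targets (-0.09 and -0.02). Sp-EF2 had no other kept probe. The median of the 15 means was -0.28, and the median of their average log2 intensities was 10.0. Sp-EF1A, named for the elongation factor that brings charged tRNAs to the ribosome, fell in morphants. Cultures 1 to 4 had log2 ratios of -2.48, -1.95, -1.45 and -1.31. Every culture was well below the pool, with a mean of -1.80 ± 0.53 (SD, n = 4), 0.288-fold, and an adjusted p of 0.0337, and its other probe gave -1.54. Without culture 2, 3 or 4 the mean was -1.75, -1.92 and -1.96 at adjusted p of 0.102, 0.125 and 0.0927, where 1, 0 and 0 of all targets passed. With a variance trend, where 0 of all targets passed, the adjusted p was 0.113. Sp-EF2, named for the factor that moves the ribosome along the message, had -1.14, -0.48, -0.65 and -1.35. Its mean was -0.90 ± 0.41 (SD, n = 4) with an adjusted p of 0.0553. It passed with the stricter filter (adjusted p = 0.0481) and with culture as a random block (adjusted p = 0.00912), and with median centring the mean was -0.44 (adjusted p = 0.430). Both targets named Sp-EF1B, for the exchange factor of EF1A, were near 0, at -0.12 (adjusted p = 0.219) and -0.04 (adjusted p = 0.889). The target 9U8R3_ELONGATION_FACTOR_1 among the members, at 0.30, and Sp-EF1A, at -1.80, thus had ratios on opposite sides of 0 although both names hold elongation factor 1, and the shortened name does not say which subunit 9U8R3 stands for.

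Of 21 tested ribosomal proteins without 28S or 39S in their names, 2 fell and 0 rose, against 2.04% and 2.96% of all tested targets, with a median of -0.12. Tig448_60S_ribosomal_prot had a mean of -0.79 ± 0.27 (SD, n = 4) with an adjusted p of 0.0458, and its other probe gave -0.76. Tig3_60S_ribosomal_protei had -1.08 ± 0.42 with an adjusted p of 0.0476, and its other probe gave -0.22. Without culture 2, 3 or 4 the means were -0.66 to -0.87 for Tig448_60S_ribosomal_prot and -0.87 to -1.15 for Tig3_60S_ribosomal_protei, at adjusted p of 0.0870 to 0.138. Both also missed the threshold with no filter (adjusted p = 0.0514 and 0.0550) and on the Cy5 arrays alone (adjusted p = 0.0608 and 0.0606), and Tig448_60S_ribosomal_prot with the local background subtracted (adjusted p = 0.0602) and Agilent's log ratio (adjusted p = 0.0631). Of 9 tested proteins named 28S or 39S, the subunits of the mitochondrial ribosome, 0 passed limma's test, against 5.00% of all tested targets. At an unadjusted p under 0.05, limma called 2 of the 9, against 35.3% of all tested targets. The smallest p was that of 9VHC6_39S_ribosomal_prote, at 0.52 ± 0.29 (adjusted p = 0.0741). Culture as a random block over all 8 arrays (adjusted p = 0.0172) and leaving out culture 1 (0.66, adjusted p = 0.0356) put it past the threshold.

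Of 19 tested ribosome biogenesis targets, 1 rose and 0 fell, against 2.96% and 2.04% of all tested targets. Means were above 0 for 14 of 19, against 46.2% of all, with a median of 0.26. The one that rose was Tig415_Probable_rRNA-proc, at 0.62 ± 0.18 (SD, n = 4), 1.54-fold, with an adjusted p of 0.0458, and its other probe gave 0.14. Of 9 tested targets for translation control and nascent chains, 1 rose and 0 fell, against 2.96% and 2.04% of all tested targets. This was 1 of the targets named Sp-PABP, poly(A)-binding protein, which links the tail of a message to the initiation complex. Its log2 ratios were 0.51, 1.33, 0.99 and 1.29 in cultures 1 to 4. All lay above 0, the mean was 1.03 ± 0.38 (SD, n = 4), 2.04-fold, with an adjusted p of 0.0458, and the other probe gave 1.03. The other target named Sp-PABP had 0.54, -1.28, -2.67 and -0.43, with a mean of -0.96 ± 1.36 (SD, n = 4). Its limma adjusted p was 0.267, and its other probe gave -0.68. The targets Mes_gi_Polyadenylate-bind and Mes_giPolyadenylate-bindi also had means below 0, at -0.20 and -0.41 (limma adjusted p = 0.111 and 0.148). Without culture 2, 3 or 4 the mean was 0.53 to 0.66 for Tig415_Probable_rRNA-proc (adjusted p = 0.109 to 0.125). For the Sp-PABP target that rose, called Sp-PABP from here on, it was 0.93 to 1.04 (adjusted p = 0.124 to 0.147). Sp-PABP also missed the threshold with no filter (adjusted p = 0.0542) and on the Cy5 arrays alone (adjusted p = 0.0520). With median centring and no loess, all of the targets above that passed missed the threshold, in a setting that called 1.02% of all targets, with Sp-EF1A at -1.22 (adjusted p = 0.131), Tig448_60S_ribosomal_prot at -0.27, Tig3_60S_ribosomal_protei at -0.53, sing_9SC52_TRANSLATION_ELO at 0.97 (adjusted p = 0.0858), Tig415_Probable_rRNA-proc at 0.98 (adjusted p = 0.0677) and Sp-PABP at 1.54 (adjusted p = 0.0993). The medians were then 0.14 for ribosomal proteins, 0.29 for those named 28S or 39S, with -0.19 under loess, and 0.05 for curated factors, all on the other side of 0 from their loess values. The biogenesis median was 0.72, and the median of all tested targets was 0.10.

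**Figure D4:**
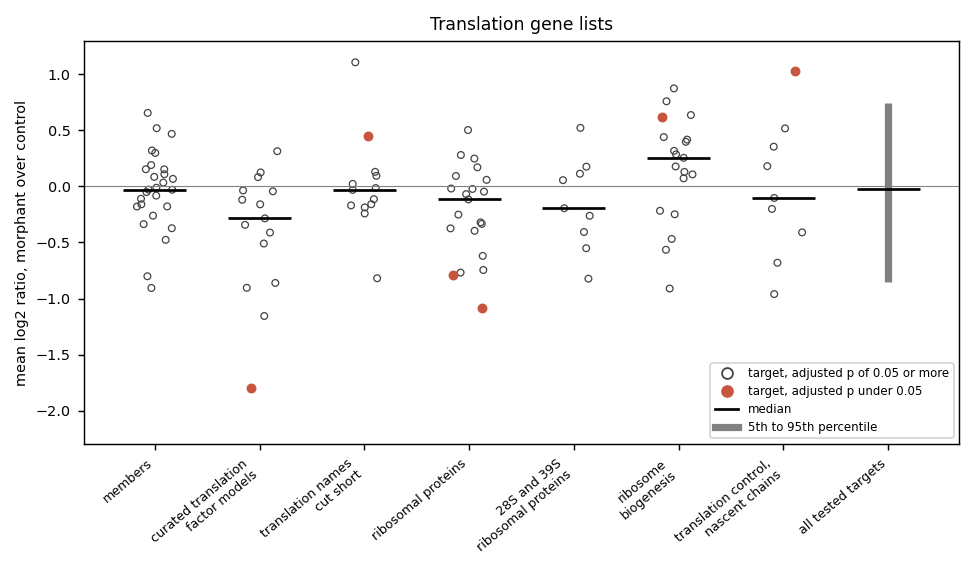
Each circle is 1 tested target of a list at its mean log2 ratio (y axis, morphant over control), with filled circles for a limma adjusted p under 0.05 and black bars for medians. The grey bar spans the 5th to 95th percentile of all 5481 tested targets. The members are centred at -0.03 with no filled circle, and Sp-EF1A is the lowest point at -1.80.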

How the data were processed

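Per the file headers, the authors' scanner files come from Agilent Feature Extraction 10.7.1.1 and hold mean signal and local background intensity per spot and channel, marks for outlier, dim and saturated spots, and a log10 ratio of Cy5 over Cy3. Log2 ratios in the authors' deposited table, made by steps not given in the sources used here, correlated at 0.971 to 0.993 with loess ratios of the unsubtracted signals. Signals were corrected with normexp (offset 50) and loess (limma 3.58.1, R 4.3.3 and the data.table package in version 1.17.8), with 536 control spots at weight 0. Outlier spots were left out, ratios were turned to morphant over control and the 2 arrays of a culture averaged (n = 4). The brightest kept probe stood for a target. Means were tested with lmFit and eBayes against 0 and adjusted by Benjamini-Hochberg over 5481 targets, threshold 0.05. The code was tested on simulated data.

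No arrays held identical values; arrays of 1 culture correlated at 0.898 to 0.958. Between 51.5% and 79.5% of probes per array and channel were well above background, and the number of arrays limits the precision. Members named are those past the threshold, the 6 smallest p and 3 largest ratios of each role, those with probes of opposite sign, and up to 4 passing targets, or the smallest p, of each related list. The values for Sp-EF2, Sp-EF1B, the curated eIF targets and the poly(A)-binding targets that did not pass were chosen after they were seen. Members and lists were chosen with earlier results of these data known. No target name was matched to RefSeq.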

Additional observations from a re-analysis of the deposited data

Results flagged for a closer look

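In 24tig3200_Seryl-tRNA_synt, culture 4 (log2 ratio -0.065) lay apart from the other 3 cultures, which were close together at -0.12 to -0.13. The gap was 0.869 of the range over the 4 cultures. The 2 arrays of culture 4 had -0.002 and -0.128, and those of culture 2 had -0.235 and -0.026. The limma F test between cultures gave an adjusted p of 0.940 for this target. All 4 culture values were small and below 0. This was 1 of 17 members examined for such a culture, and chance marks about 1 group in 20.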

How the results depend on the processing

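The count of members past the threshold was 2 of 27 with the local background subtracted (12.7% of all targets called) and 2 with Agilent's log ratio (15.3%), both higher in each and P70541_TRANSLATION_INITIA 1 of them, with medians of -0.40 and -0.44. It was 1 of 21 with the stricter filter (1 higher; 9.21% of all), 3 of 27 with the authors' deposited table (2 higher, 1 lower; 10.6%) and 3 of 27 with culture as a random block (1 higher, 2 lower; 26.3%). It was 1 with only the Cy5 (3.83%) or only the Cy3 arrays (7.33%), higher in each, 0 to 1 when 1 culture was left out (0 to 1 lower, and 1 without culture 1, where 16.2% of all were called), and 3 at a threshold of 0.1. Chosen after seeing the data, adding the names cut short gave 1 of 40 and adding the curated gene models gave 1 of 42. The count stayed at 0 with no background correction, median centring, no filter, the mean of the probes, the dimmer probe, a variance trend, a threshold of 0.01, RNA polymerase names left out, and every kept probe tested separately. The F test between cultures called 15 to 21 of 27 members in 5 added settings.

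Of the targets named in the text, those whose ratios changed sign were Mes_gi_Elongation_factor (-0.77 with local background subtracted, -0.85 with Agilent's log ratio, -0.049 to 0.89 when 1 culture was left out, with the lowest value without culture 2), sing_82110_SERYL_TRNA_SYNT (0.027 with median centring), N_P49588_ALANYL_TRNA_SYNT (0.16 with median centring, 0.034 in the authors' table, 0.015 on Cy5 arrays, 0.022 for the dimmer probe), 9U8R3_ELONGATION_FACTOR_1 (-0.13 on Cy3 arrays) and both Sp-EF1B targets (0.031 and 0.33 with median centring; the second also 0.048 on Cy3 arrays and -0.23 to 0.14 when 1 culture was left out, above 0 without culture 3). The cause was not tested. Single values of the curated eIF targets and of the poly(A)-binding targets that did not pass were not followed over these settings. Members not named singly changed sign too, 2 with local background subtracted, 3 in the authors' table, 4 on Cy3 arrays, 1 with no filter and 2 to 3 when 1 culture was left out. Sp-EF1A, sing_9SC52_TRANSLATION_ELO, Tig448_60S_ribosomal_prot, Tig3_60S_ribosomal_protei, Tig415_Probable_rRNA-proc and Sp-PABP each missed the threshold when culture 2, 3 or 4 was left out and with a variance trend, where at most 1 of all 5481 targets passed. No slide or scan block was run, since there was 1 slide and 1 scan time. No paired analysis was possible because the morphants form 1 group and share 1 control pool.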
